A study of Rattus norvegicus with 12 samples.

Results

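Matrix metalloproteinases (MMPs) and the tissue inhibitors of metalloproteinases (TIMPs) were followed on 12 arrays of rat nervous tissue. The genes were Mmp2, Mmp3, Mmp9, Mmp12, Mmp13, Mmp14, Timp1, Timp2, Timp3 and Timp4, and every probe whose RefSeq transcript belongs to 1 of them was taken. All 10 were on the array, with 12 probes, among 15153 named genes. Mmp2 and Timp4 had 2 probes each and the others 1. 6 of the genes were well above background on all 12 arrays (the flag that Agilent's Feature Extraction software sets), Mmp13 on 4, Mmp12 on 2, and Mmp3 and Mmp9 on 0.

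MMPs are zinc-dependent proteases that are made as inactive precursors and cut matrix, myelin proteins and cytokines. The gelatinases Mmp2 and Mmp9 digest denatured collagen and basement membrane, Mmp14 sits in the plasma membrane and activates the Mmp2 precursor together with Timp2, Mmp12 is the elastase of macrophages, Mmp13 is a collagenase and Mmp3 a stromelysin. TIMPs bind the active site, and Timp1 is secreted by many injured tissues. In peripheral nerve, Schwann cells and infiltrating macrophages make these enzymes after injury, and myelin basic protein (MBP) is among their substrates.

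The study asked how the nerve and its central targets respond when MBP84-104, a peptide of MBP, is placed into the left sciatic nerve of female rats 8 weeks old at a dose of 50 µg in a volume of 5 µl. Wild-type rats were Sprague-Dawley, taken on day 12, and athymic nude rats were Hsd:RH-Foxn1rnu, taken on day 7; nude rats lack a thymus and mature T cells but keep macrophages, neutrophils and B cells. In each rat type 1 array held the injected left nerve, 1 the right nerve given PBS, 1 the left dorsal root ganglia (DRG), 1 the right DRG, 1 the left dorsal part of the lumbar cord and 1 the same part of the cord above it. Each array carried RNA pooled from 3 rats. The study's text describes the controls as the other side, or a higher cord level, of the injected rats, so no array shows an animal without the peptide. That text also gives a single time for both rat types, larger groups and heterozygous rats as wild-type, where the labels are as given here. Rat type, strain and day cannot be told apart.

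The array medians ranged from a signal of 15.4 (injected nude nerve) to 74.9, and the share of spots well above background from 59.5% to 76.9%. One slide carried all 6 arrays of nude rats together with both nerve arrays of wild-type rats, and another the remaining 4, so both arrays of every side-to-side comparison shared a slide. Levels below are log2 signals minus the median of that array, where 0 is the median probe. With 1 array per condition no ratio between sides has a p-value, and "called" means at least 2-fold. Levels of different probes cannot be set against each other. In whole tissue, a change in the number of cells of a type and a change in RNA per cell cannot be told apart.

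The promoters are shown first, because Mmp12 and Timp1 were the members that stood out in the nerve, and because Mmp13, Mmp12 and Mmp3 are neighbours. In the GRCr8 annotation 10 MMP genes lie in 1 run of 12 genes on chromosome 8, in the order Mmp13, Mmp12, Mmp1b, Mmp3, Mmp1, Mmp10, Mmp8, Mmp27, Mmp20 and Mmp7, with 2 pseudogenes between them. The RefSeq promoter table (GRCr8) held 7 of the 10 members. The letters searched on both strands of the 250 bases before the start were TGANTCA, bound by AP-1 factors such as Fos and Jun, and AGGAAG, a core bound by ETS factors. The lines give the last 100 bases before the annotated start, 5′ to 3′ on the strand of the gene, with both motifs in capitals. The windows are Mmp12 at chr8:12866552-12866651 (plus strand), Mmp3 at chr8:12925181-12925280 (plus strand), Mmp13 at chr8:12782729-12782828 (plus strand) and Timp1 at chrX:3771123-3771222 (minus strand).
Mmp12: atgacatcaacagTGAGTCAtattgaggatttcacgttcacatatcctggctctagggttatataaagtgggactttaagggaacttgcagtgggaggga
Mmp3: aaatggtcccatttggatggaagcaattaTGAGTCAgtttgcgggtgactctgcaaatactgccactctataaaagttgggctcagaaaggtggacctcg
Mmp13: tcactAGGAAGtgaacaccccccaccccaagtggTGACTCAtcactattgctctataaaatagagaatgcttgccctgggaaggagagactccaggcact
Timp1: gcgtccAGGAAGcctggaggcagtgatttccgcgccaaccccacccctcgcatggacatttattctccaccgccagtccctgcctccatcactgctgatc

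The AP-1 letters stood in the windows of all 3 of these MMPs. They lay at bases 87 to 81 before the start of Mmp12, 71 to 65 of Mmp3 and 66 to 60 of Mmp13. None of the 4 TIMP windows held an exact match. The Timp1 window held TGAGTAA, with A in place of C, just before the printed line, and near matches were not counted. No windows were listed for Mmp2, Mmp9 and Mmp14, so the letters do not separate MMPs from TIMPs. The exact AP-1 letters were found in 6.34% of all 33469 promoters listed. The ETS letters stood in the windows of Mmp3, Mmp13, Timp1 (at 2 places) and Timp4, against 29.5% of all promoters. Among the other MMP genes 4 of 13 windows held the AP-1 letters, namely Mmp1, Mmp7, Mmp10 and Mmp20. A match is a description of the letters and no evidence of binding.

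In the injected nerve, Mmp12 and Timp1 were higher than in the contralateral nerve of both rat types, and no other measured member passed 2-fold. The level of Mmp12 was 1.60 in the injected and -3.13 in the contralateral wild-type nerve, and 0.30 and -4.45 in the nude nerves. The injected nerves were the only 2 of the 12 arrays on which the probe was well above background. Against the lowest signal that counted as well above background on the contralateral arrays, Mmp12 was at least 17.0-fold higher in wild-type rats and at least 11.9-fold higher in nude rats (log2 4.08 and 3.57). Since both are bounds, they do not rank the rat types. These ratios rest on 2 spots per array and on bounds that move with the background treatment. Over the settings tried, the log2 ratio of Mmp12 lay between 1.499 and 4.73 in wild-type and between 0.93 and 4.75 in nude rats. Both low ends came from normexp correction, which adds an offset to every signal. Such an offset shrinks ratios of dim signals whatever the true change, so the low ends do not test the size of the Mmp12 ratio.

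Timp1, the inhibitor that forms complexes with the Mmp9 precursor, stood well above background everywhere. In wild-type rats its level was 9.63 in the injected and 7.47 in the contralateral nerve. The nude nerves read 9.82 and 7.68. Both injected nerves lay above both contralateral nerves and above all 8 DRG and cord arrays. The injected nerve carried 4.48-fold more signal in wild-type rats (log2 2.16) and 4.40-fold more in nude rats (log2 2.14). The 10 spots of the Timp1 probe differed by an SD of at most 0.0568 (log2) on any array, which measures the array and not the animals. After normexp background correction the nude ratio was 0.97, beside a median over all genes of -0.83.

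Mmp2 and its activator Mmp14 were higher in the injected nerve by less than 2-fold. The level of Mmp2 was 8.60 in the injected and 7.68 in the contralateral wild-type nerve, and 8.07 and 7.71 in the nude nerves, by the probe with the higher mean signal (log2 ratios 0.92 and 0.37). The second Mmp2 probe read 5.53 and 4.68 in wild-type rats, a ratio of 0.85, but 4.86 and 4.91 in nude rats, a ratio of -0.05. The 2 probes thus gave like ratios in the wild-type nerve and disagreed in sign in the nude nerve. Both Mmp2 probes had 1 spot per array. Mmp14 read 6.12 and 5.59 in wild-type and 5.90 and 5.66 in nude nerves (ratios 0.53 and 0.23). Mmp2 and Mmp14 in the nude nerve turned to -0.78 and -0.91 after normexp correction, beside the shift of all genes given above.

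The other inhibitors were flat or lower. Timp2, which both inhibits Mmp2 and helps to activate it, read 10.16 and 10.18 in the wild-type nerves and 10.03 and 10.09 in the nude nerves, a difference of 0.06 or less on the log2 scale. Timp3, the inhibitor bound to matrix, read 1.08 in the injected and 1.63 in the contralateral wild-type nerve and 1.44 and 2.13 in the nude nerves (ratios -0.55 and -0.70). Timp4 read 1.39 and 1.70, and 1.46 and 1.79 (ratios -0.31 and -0.33), and its second probe gave -0.31 and -0.42. The ratios of Timp3 and Timp4 were below 0 in both rat types under each of 10 settings, the main one included. Requiring both arrays above background or dropping the floor could not change them, as both genes were above background everywhere. In the nude nerve the median ratio of all genes was -0.39, which is below that of Timp4. The Timp4 ratio there ranged from -0.61 to -0.04 over the settings. Mmp3, Mmp9 and Mmp13 were not well above background on any nerve array. The highest signal of the Mmp9 probe on any array was 4.40 and of the Mmp3 probe 3.84, whereas the lowest signal that counted as well above background lay between 4.44 and 7.05, so the arrays give no ratio for these genes and do not show that they are absent.

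**Figure D1:**
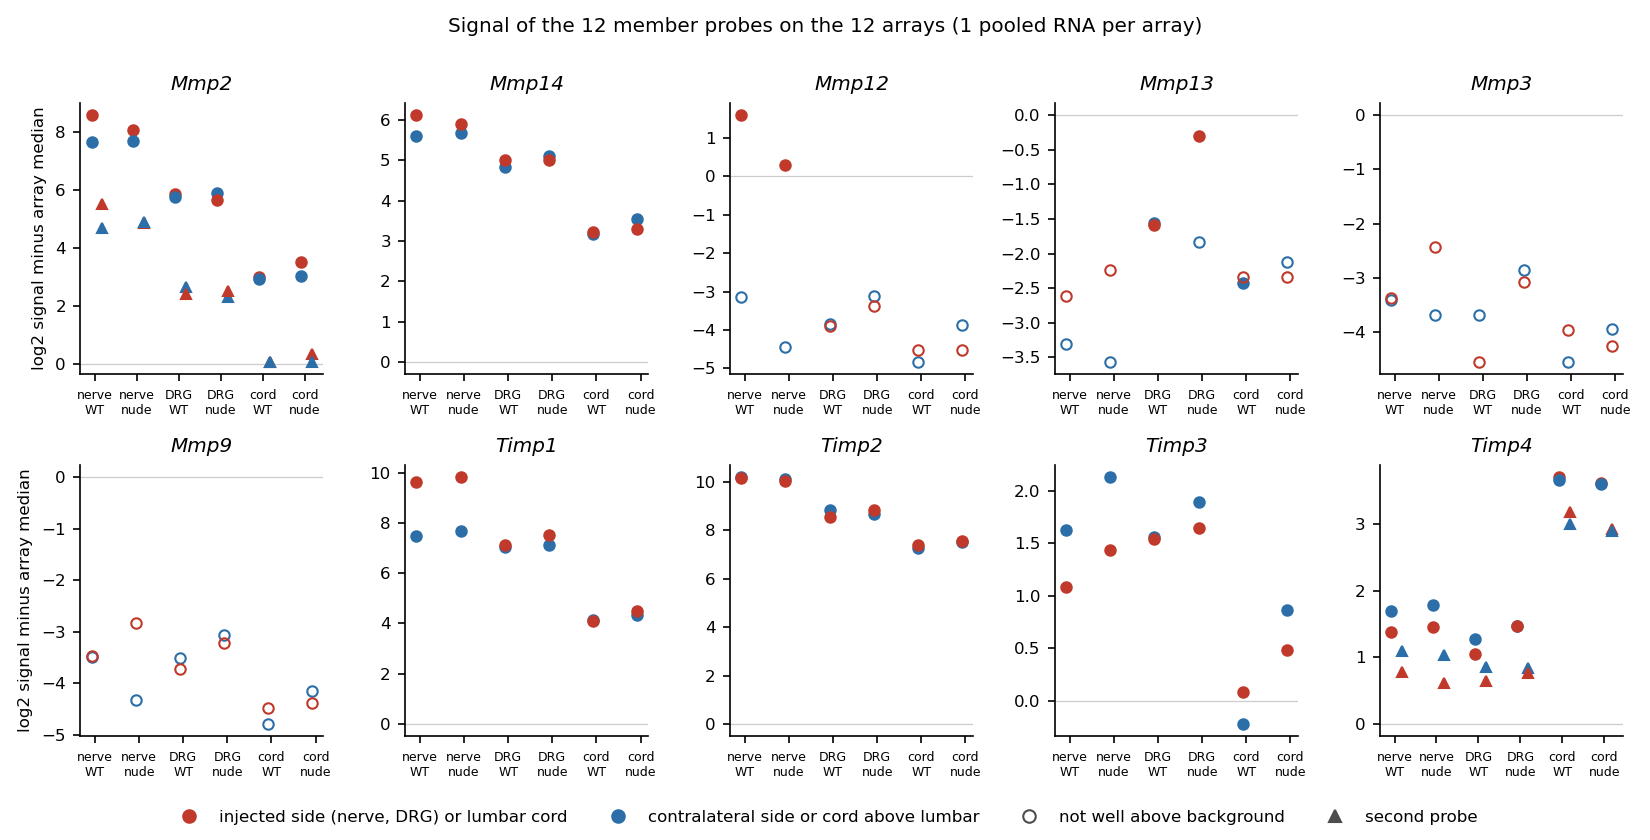
Level of each member (y axis, log2 signal minus the array median) on the 12 arrays, by tissue and rat type (x axis; WT, wild-type). Red, injected side or lumbar cord; blue, contralateral side or cord above lumbar; open symbols, not well above background; triangles, the second probe of Mmp2 and Timp4. Mmp12 is filled on the injected nerve arrays alone, and Timp1 reads 9.63 and 9.82 there against 7.47 and 7.68 in the contralateral nerves.

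Counted together, 7 of the 10 members were measured in each nerve comparison. In wild-type rats 2 of the 7 were called higher and 0 lower, beside 5.84% of 10669 genes higher and 4.83% lower. In nude rats the count was the same, beside 7.60% of 10219 genes higher and 14.3% lower. Mmp12 entered both counts as a bound seen on the injected array alone, so it could not have been called lower. The shares over all genes include such bounds as well. With both arrays required above background, Timp1 alone was still called, in either rat type. The split over all genes in the nude nerve depends on the scaling, and with the 75th percentile in place of the median 12.4% were higher and 6.46% lower. The median ratio of the measured members was 0.53 in wild-type rats, where that of all genes was -0.05, and 0.23 in nude rats, where it was -0.39.

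The nerve ratios of wild-type and nude rats were also set against each other, which is a description of 4 arrays. Over 9987 genes the wild-type ratio exceeded the nude ratio by a median of 0.36. Mmp2 differed by 0.55, Mmp14 by 0.29, Timp3 by 0.15, Timp2 by 0.05, Timp1 by 0.03 and Timp4 by 0.02 in the same direction. The direction of the TIMPs turned with the setting, the lowest values being -0.07 (Timp3), -0.17 (Timp2), -0.19 (Timp1) and -0.19 (Timp4). None of these 6 members differed by 2-fold in either direction, beside 12.5% of the 9987 genes, and 5 of them differed by less than the median gene. The sets are unlike, because the 9987 genes include dim genes seen on 1 array of a pair. The 6 members were well above background on all 4 nerve arrays, and Mmp12, a bound in both rat types, was left out. The share therefore does not show the members to be steadier than other genes. After normexp correction 4 of the 6 (Mmp2, Mmp14, Timp1 and Timp2) differed by more than 2-fold, by 1.26 to 1.70, beside median nerve ratios over all genes of -0.0027 in wild-type rats and -0.83 in nude rats.

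**Figure D2:**
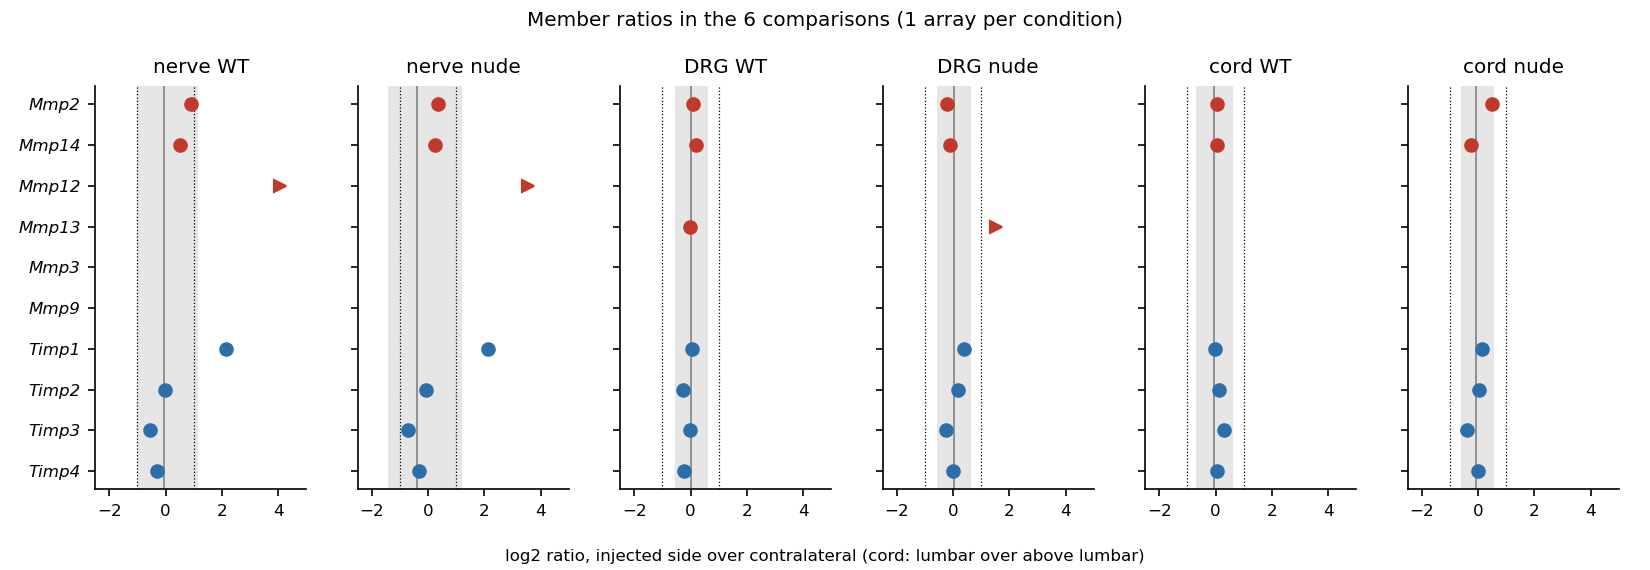
Log2 ratio (x axis) of each member (y axis) in the 6 side-to-side comparisons, 1 array per condition. Red, MMPs. Blue, TIMPs. Triangles, ratios with only 1 array well above background, which are lower bounds for Mmp12 but not strictly for Mmp13. Grey band and line, the 5th to 95th percentile and the median of all measured genes. Dotted lines, 2-fold. Mmp12 and Timp1 lie beyond the band in both nerves and Mmp13 in the nude DRG, and the other measured members lie inside it.

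In the DRG and the cord almost nothing passed 2-fold. In the wild-type DRG 0 of 7 measured members were called, beside 1.20% of 11507 genes higher and 0.582% lower, and the ratios ran from -0.27 (Timp2) to 0.18 (Mmp14). In the nude DRG 1 of 7 was called higher and 0 lower, beside 1.75% and 0.785% of 10060 genes. In the cord 0 of 6 measured members were called in either rat type, beside 1.12% higher and 1.39% lower of 11441 genes in wild-type rats and 1.55% and 1.07% of 11130 genes in nude rats. Timp1 read 7.12 and 7.05 in the wild-type DRG, 7.51 and 7.12 in the nude DRG, 4.12 and 4.15 in the wild-type cord, and 4.49 and 4.35 in the nude cord. The largest cord ratio in size among the members was that of Mmp2 in nude rats, 0.49.

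The member called in the nude DRG was Mmp13. It read -0.30 on the injected side and -1.83 on the contralateral side, where it was not well above background. The ratio was 2.88-fold (log2 1.52). It is no strict bound, because the contralateral signal of 5.51 exceeded the lowest signal that counted as well above background there, 5.05. In the wild-type DRG both sides were well above background at -1.59 and -1.56. The fourth array with Mmp13 well above background was the wild-type cord above the lumbar level, at -2.43, while the lumbar cord read -2.34 without passing. The probe lay near the detection limit, its 9 or 10 spots differing by an SD of 0.164 to 0.606 (log2). Normexp correction gave 0.21 in the nude DRG, but its offset shrinks ratios of signals this dim, so that value cannot decide. Markers of other tissues moved on the same array pair. In the nude DRG 3 of 4 measured neutrophil markers (S100a8, S100a9 and Camp, at 2.02, 1.66 and 2.22), 4 of 5 skeletal muscle markers and 1 of 3 adipocyte markers were at least 2-fold higher on the injected side. Relative to the array median, the neutrophil list summed to 206.7 for the injected-side DRG against 55.9 for the other, and the muscle list to 18.2 against 3.62. Their part in the Mmp13 value was not tested.

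The rest of the MMP family gave a wider range in the nerve than the members did. Of 16 other MMP genes 15 were on the array, and 10 could be measured in the nerve of wild-type rats and 9 in that of nude rats. Mmp7, the matrilysin, which is the last gene of the chromosome 8 run, was well above background on the 2 injected nerve arrays and no other, as was Mmp12. It read 1.44 and -2.81 in wild-type and 0.43 and -3.48 in nude nerves, so that it was at least 15.2-fold and at least 13.0-fold higher (log2 3.93 and 3.70). Mmp27, a gene of the same run, went the other way, with ratios of -2.31 and -2.51. Mmp11, a stromelysin of stromal cells, was higher in wild-type rats (bound of 2.05), and Mmp19 read 0.94 and 1.26. Mmp24, a membrane type MMP of neurons, read -0.74 and -1.81, the injected nude nerve not being well above background. The 5 remaining family members that were well above background on at least 6 arrays (Mmp15, Mmp16, Mmp17, Mmp23 and Mmp28) lay between -0.44 and 0.40 in both nerves. Mmp1, Mmp8, Mmp10, Mmp20 and Mmp21 were not well above background on any nerve array.

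Lists of genes that activate, induce or bind MMPs were read against the shares of all genes, 5.84% higher and 4.83% lower in the wild-type nerve and 7.60% and 14.3% in the nude nerve, and their enrichment was not tested. In the plasminogen list Plaur, the receptor of urokinase, was called higher in each rat type, at 1.67 in nude and 1.87 in wild-type rats. The contralateral wild-type nerve was not well above background for Plaur. Serpine2 was lower at -1.20 in nude rats. Of the cytokines and transcription factors known to induce MMP genes, 4 of 11 were called higher in wild-type and 2 of 10 in nude rats, and none lower. The chemokine Ccl2 read 2.36 and 2.15. Fosl1, an AP-1 subunit, was well above background on both injected nerve arrays and on no other array, with bounds of 2.55 and 3.16. The AP-1 subunit Junb read 1.12 and 0.89, and Il6 was seen on the wild-type injected nerve alone (bound of 2.22).

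Of the proteins that bind or clear MMPs, 3 of 9 measured genes were called higher in wild-type and 2 of 8 in nude rats. They were Thbs1 (1.51 and 2.53) and Cd44, which anchors Mmp9 at the cell surface (1.15 and 1.51). Wild-type rats added the protease trap A2m (1.29, and 0.11 in nude rats). Thbs1 was not well above background in the contralateral wild-type nerve. No ADAM or ADAMTS protease of the 6 measured in either rat type was called. Among matrix substrates Fn1, fibronectin, read 1.18 and 1.05 and Bcan, a brain proteoglycan, -1.73 in wild-type rats, while the collagens Col1a1 and Col1a2 stayed between -0.25 and 0.30. Among myelin substrates Pmp22 read -0.71 and -0.90, and Mbp, named here because the injected peptide is a stretch of its product, -0.37 and 0.23.

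**Figure D3:**
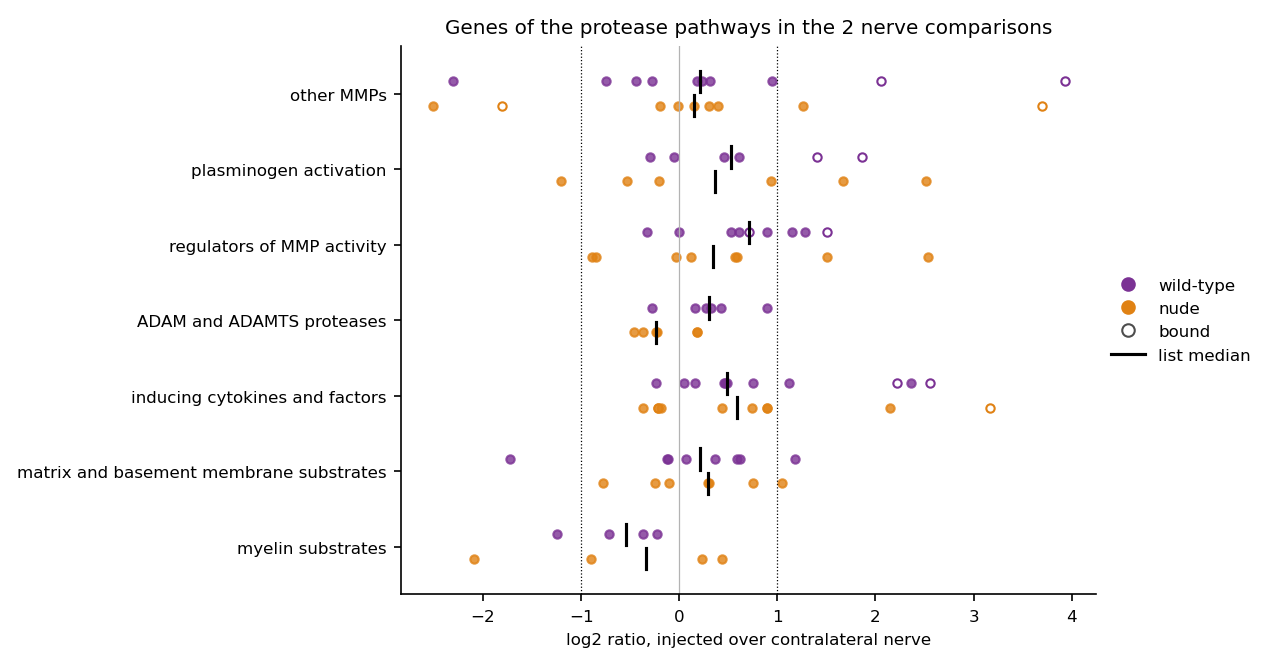
Log2 ratio of injected over contralateral nerve (x axis) for the genes of 7 lists (y axis). Purple, wild-type; orange, nude; open circles, bounds; black ticks, list medians; dotted lines, 2-fold. Mmp7 is the open circle near 4 of the other MMPs in both rat types (3.93 and 3.70), and Mmp27 the filled circle below -2.

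Markers of several cell types moved in the same 2 array pairs. Of 8 macrophage markers 3 were called higher in wild-type rats and 0 in nude rats. Their median ratio was 0.69 and 0.17, and their summed signal was 2622 in the injected and 1235 in the contralateral wild-type nerve, and 1868 and 1555 in the nude nerves. Lyz2 read 1.14 and 0.25, Aif1 0.61 and 0.40, and Cd68 1.27 and 0.36. The second macrophage list, of lipid-laden cells, had a median of 1.42 and 0.52, with 3 of 5 markers called higher in wild-type rats (Gpnmb, Trem2 and Lgals3) and 2 of 5 in nude rats (Gpnmb and Trem2). Gpnmb read 2.76 and 1.44, Trem2 1.81 and 1.58, and Lgals3 1.42 and 0.52, the first pair being named after their values were seen. Spp1 had the lowest ratios of this list, 0.21 and -0.50. The levels of Fabp5 were 8.91 in the injected and 8.21 in the contralateral wild-type nerve, and 9.11 and 8.62 in the nude nerves. Neutrophil markers were measured for 3 of 5 genes, with S100a8 at 3.62 and 2.67 and S100a9 at 3.44 and 2.23. The remaining one, Camp, read 0.79 and 0.66, below 2-fold in both rat types.

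Myelinating Schwann cell markers were lower in both nerves, 3 of 5 by at least 2-fold in each, with medians of -1.07 and -1.12. Dividing-cell markers Cdk1 and Ccnb1 were higher by 1.76 to 2.20. Of 6 fibroblast markers none was called, and their medians were 0.03 and 0.01. The median of the skeletal muscle markers was 1.19 in wild-type rats but -1.20 in nude rats, with Myl11 at 4.15 in wild-type rats, and adipocyte markers one of -3.06 and -2.47. Of 6 T cell markers 4 were measured in the wild-type nerves, 2 of them called higher, and 3 in the nude nerves, 1 of them called higher. Cd3d read 0.33 (wild-type) and 1.27 (nude), Cd3g -0.12 and -0.56, and Cd247 1.49 and a bound of -0.57. Cd3d was well above background on all 12 arrays, those of athymic rats included. The part of these cells in the member ratios was not tested.

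**Figure D4:**
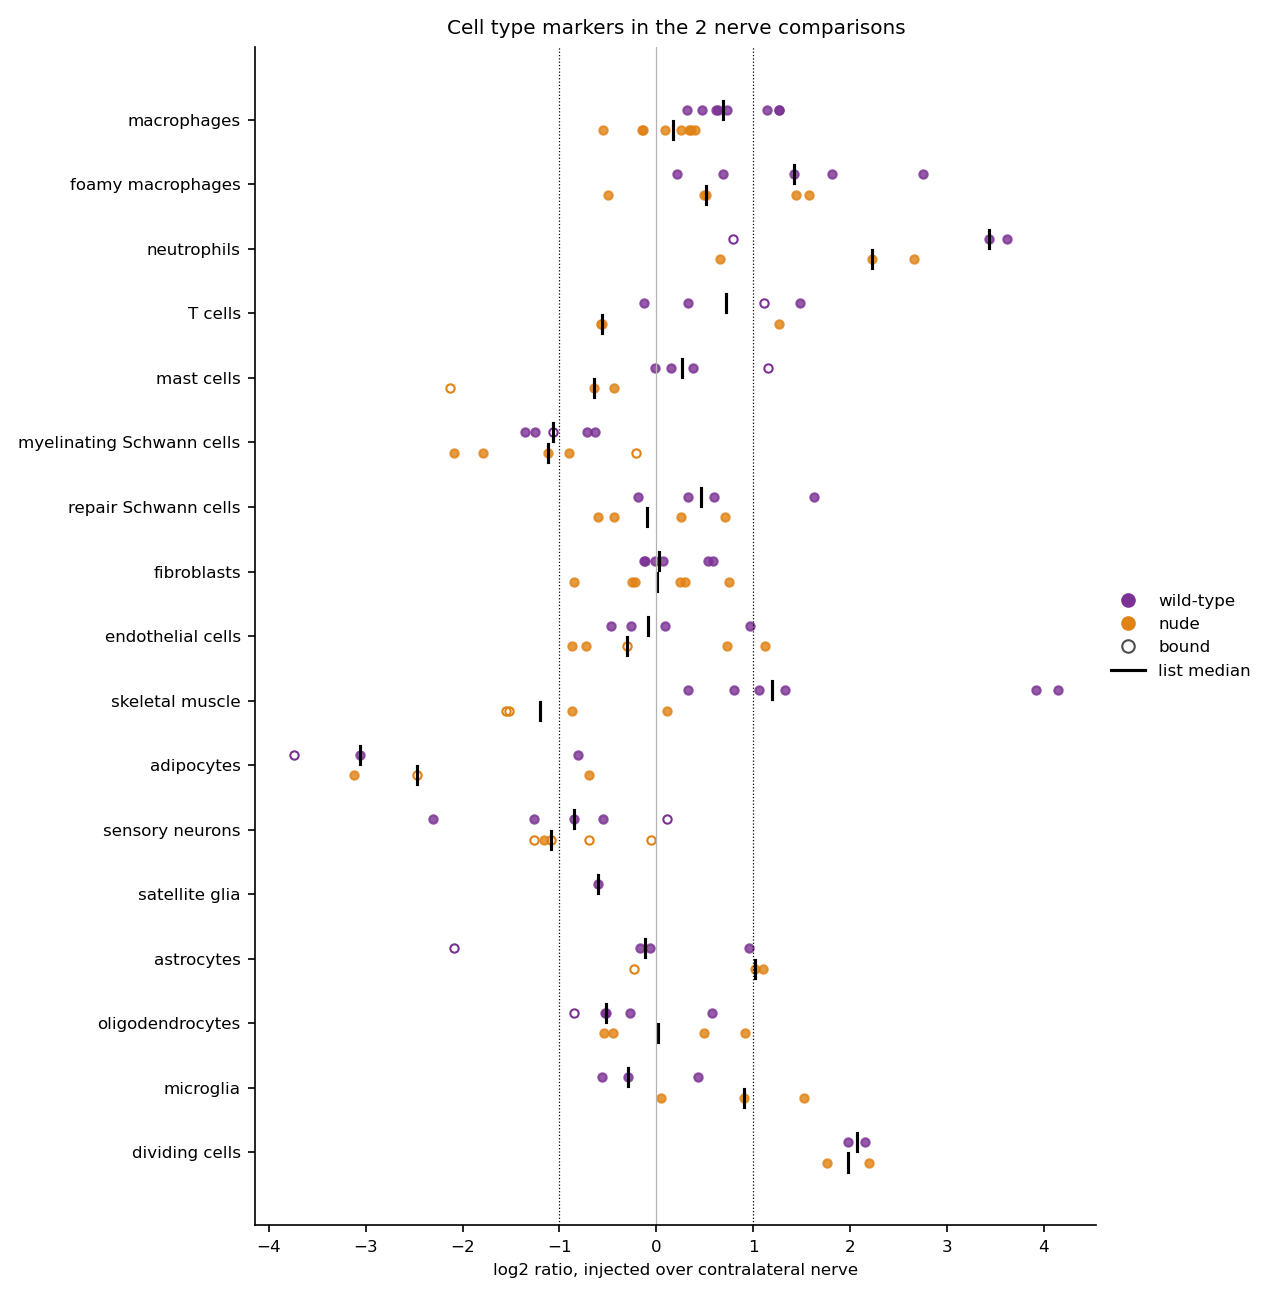
Log2 ratio of injected over contralateral nerve (x axis) for markers of 17 cell types (y axis). Purple, wild-type; orange, nude; open circles, bounds; black ticks, list medians; dotted lines, 2-fold. Myelinating Schwann cell markers lie below 0 in both rat types (medians -1.07 and -1.12), neutrophil markers above 0, and skeletal muscle markers above 0 in wild-type rats and mostly below in nude rats.

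The tissues were compared next. Here the 2 arrays of a tissue in a rat type were averaged, and limma's moderated test was run across 11438 genes on these 6 values per gene, with tissue and rat type in the model. The p-values therefore measure how far the tissue differences varied between the 2 rat types, with the spread moderated across all genes. The rat types differ in strain and day, with 1 pool each. Of the 10 members 7 entered the test. Mmp13 entered through DRG and cord arrays alone, which favoured the directions in which it was called. The counts below hold it as lower in nerve against DRG and cord, and as higher in DRG against cord. The same filter was applied to all genes. Nerve against DRG, 4 of 7 were higher and 1 lower at an adjusted p below 0.05, beside 33.5% and 15.1% of all genes. Nerve against cord, 5 were higher and 2 lower, beside 35.6% and 31.1%. DRG against cord, 6 were higher and 1 lower, beside 25.7% and 35.9%. The median difference of the tested members was 0.83, 2.51 and 1.36 in the 3 contrasts, and that of all tested genes 0.25, 0.10 and -0.14. With the 75th percentile as the scale the shares of all genes were 20.8% and 20.5% for nerve against DRG and 31.7% and 28.9% for DRG against cord, and after normexp correction the latter were 13.9% and 41.7%.

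Mmp2 had the largest difference of the 7 tested members for nerve against DRG and for nerve against cord, and Timp1 the largest for DRG against cord. The level of Mmp2 was 7.68 to 8.60 on the 4 nerve arrays, 5.67 to 5.89 on the DRG arrays and 2.94 to 3.53 on the cord arrays, with no overlap between tissues. The nerve exceeded the DRG by 2.22 ± 0.17 (SE; limma, adjusted p = 0.000618) and the cord by 4.89 ± 0.17 (adjusted p = 2.14e-05), which is 29.6-fold. Mmp14, its activator, had the same order, with 5.59 to 6.12 in nerve, 4.83 to 5.11 in DRG and 3.18 to 3.54 in cord. The nerve exceeded the cord by 2.51 ± 0.14 (adjusted p = 6.84e-05), and the DRG by 0.83 ± 0.14 (adjusted p = 0.00700). This last call was lost under quantile normalization (0.44, adjusted p = 0.0549), with the authors' normalized values (0.44, adjusted p = 0.0544) and in nude rats alone (0.73, adjusted p = 0.102). Here and below, fits of 1 rat type alone took single arrays as samples, so that 2 arrays from the same pool counted as 2.

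Timp2 ran from 10.03 to 10.18 in nerve, 8.54 to 8.82 in DRG and 7.28 to 7.53 in cord, again without overlap. The nerve exceeded the DRG by 1.41 ± 0.14 (adjusted p = 0.00128) and the DRG the cord by 1.29 ± 0.14 (adjusted p = 0.00116). Timp1 had the same order on the whole, from 7.47 to 9.82 in nerve, 7.05 to 7.51 in DRG and 4.12 to 4.49 in cord, but nerve and DRG overlapped. The DRG exceeded the cord by 2.92 ± 0.12 (limma, adjusted p = 0.000107), and nerve exceeded DRG by 1.45 ± 0.12 (adjusted p = 0.000811). The nerve to DRG call rests on the injected nerves: it was 0.49 over the control arrays alone (adjusted p = 0.109) and 2.41 over the injected-side arrays alone (adjusted p = 0.00115). It was also lost with the slide as a block over 12 arrays (1.42, adjusted p = 0.112), in nude rats alone, whose arrays shared a slide (1.43, adjusted p = 0.159), and in wild-type rats alone (1.47, adjusted p = 0.133). With single arrays as samples, the difference of Timp1 between injected and contralateral nerve entered the spread of these fits. Their estimates lay near the reported 1.45.

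Timp4 went against the others. Its level was 3.61 to 3.71 in cord, 1.39 to 1.79 in nerve and 1.05 to 1.48 in DRG, and the cord exceeded the nerve by 2.07 ± 0.15 (adjusted p = 0.000164) and the DRG by 2.33 ± 0.15 (adjusted p = 0.000247). Nerve and DRG overlapped and differed by 0.26, with a 95% interval of -0.11 to 0.64 (adjusted p = 0.195). Timp3 was lowest in the cord, from -0.22 to 0.87, against 1.08 to 2.13 in nerve and 1.54 to 1.90 in DRG. The nerve exceeded the cord by 1.27 ± 0.17 (adjusted p = 0.00159) and the DRG exceeded it by 1.36 ± 0.17 (adjusted p = 0.00183). Nerve and DRG differed by -0.09 (interval -0.52 to 0.34, adjusted p = 0.685). On the slide that held all 3 nude tissues, the differences from the cord kept their direction for all 6 members well above background on all 12 arrays.

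**Figure D5:**
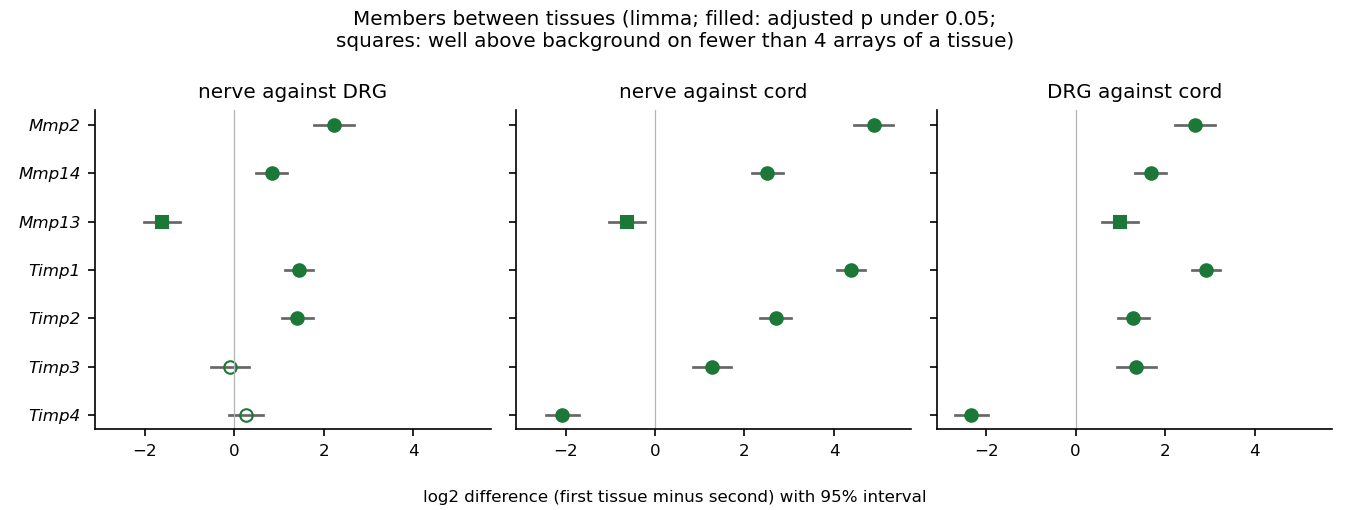
Log2 difference between tissues (x axis, first tissue minus second) for the 7 tested members (y axis), with 95% intervals from limma over 6 values per gene. Filled symbols, adjusted p below 0.05; squares, members well above background on fewer than 4 arrays of a tissue. Mmp2, Mmp14, Timp1 and Timp2 lie above 0 in all 3 panels, and Timp4 lies below 0 against the cord (-2.07 and -2.33).

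Members near the detection limit also differed by tissue. Mmp13 was well above background on 3 of 4 DRG arrays, 1 of 4 cord arrays and 0 of 4 nerve arrays. It passed the filter for the test through those DRG and cord arrays alone. That filter favoured the directions below, so the p-values of Mmp13 are no independent support. With nerve signals raised to the lowest signal well above background, the DRG was 2.27-fold above the nerve. Because the nude contralateral DRG was itself not well above background, this is no strict bound. The measured means were -1.32 and -2.93 (limma adjusted p = 0.00133). That call was lost after normexp correction, whose offset shrinks differences between signals this dim, and in nude rats alone. Nerve minus DRG was then -0.19 (adjusted p = 0.413) and -1.84 (adjusted p = 0.0761), the DRG being higher in both. The cord was 1.14-fold above the nerve by the same measure, which is no bound with 1 of 4 cord arrays well above background. The measured means were -2.31 and -2.93 (limma adjusted p = 0.0186), a call lost under 5 of 14 alternatives and turned by 1 other. The DRG also exceeded the cord by 0.99 ± 0.16 (adjusted p = 0.00443), a call lost in nude rats alone (1.17, adjusted p = 0.173) and over the control arrays alone (0.58, adjusted p = 0.0850). Mmp12, too dim for the test, was 2.30-fold higher in nerve than in DRG and 3.55-fold higher than in cord by the same measure. Both values rest on the 2 injected nerves, the contralateral nerves not being well above background.

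Cell type markers ordered the tissues as well. All 6 fibroblast markers and all 8 macrophage markers were higher in nerve than in DRG and in cord, as were 7 of 8 matrix substrates. All 4 astrocyte and 5 oligodendrocyte markers were lower in nerve than in cord, while all 6 sensory neuron markers were lower in nerve than in DRG, as the labelled tissues would have it. In the cord, myelinating Schwann cell markers, which belong to peripheral nerve, were at least 2-fold higher at the lumbar level for 4 of 5 genes in each rat type. The lumbar ratios of Mmp2, Mmp14, Timp1 and Timp2 lay between -0.25 (Mmp14) and 0.49 (Mmp2), both in nude rats. The part of cell content in the tissue differences of the members was not tested.

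Genes most like each member were ranked by Pearson correlation of the level over the 12 arrays, among 10735 genes well above background on at least 6 arrays. The arrays of a tissue share their cells and those of a rat type their pools, so these coefficients mainly describe tissue order and carry no p-value. Nearest to Mmp2 were Ly49si1 (0.998), Ppic (0.997) and C1qtnf2 (0.995), and nearest to Mmp14 were Flna, Msr1 and Serping1 (each 0.994). Nearest to Timp1 were Gngt2 (0.993), Tes (0.992) and Ifitm1 (0.990). Nearest to Timp2 were Igfbp6, Pcolce and another MMP, Mmp23 (each 0.996), nearest to Timp3 were Ptch1 (0.969), Zbtb20 (0.964) and Son (0.955), and nearest to Timp4 were Rnd2 (0.989), Aldh1l1 (0.987) and Chst10 (0.987). Between the members, Mmp2 and Timp2 correlated at 0.987, Mmp2 and Mmp14 at 0.984, and Mmp14 and Timp1 at 0.969. Timp4 was negatively correlated with all 5 others, from -0.781 (Timp2) to -0.898 (Mmp14).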

How the data were processed

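The intensity values are the processed spot signals that the authors deposited from single-colour Agilent SurePrint G3 Rat GE 8x60K arrays, background-subtracted and detrended by Feature Extraction (10.7.3.1 in the file headers, 10.5 in the submitters' notes), and not yet scaled between arrays. The authors also deposited log2 values normalized in GeneSpring, which served as an alternative; their columns look quantile-normalized, and their exact scaling stays unknown. The flags are those of the authors' software.

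Outlier-flagged spots were dropped, log2 signals of a probe's spots averaged and each array's median over 30367 probes subtracted. RefSeq accessions matched to GRCr8 named 17998 probes (15153 genes), and a gene took its probe with the highest mean. For side-to-side ratios, signals were raised to the lowest signal well above background on that array. A ratio seen on 1 array alone was treated as a bound and left out where the floor turned it. Where the dim signal lay above the floor, the ratio is no strict bound. This holds for Mmp13 in the nude DRG, Plaur and Thbs1 in the wild-type nerve and Mmp24 in the nude nerve. Tissue tests used limma 3.58.1 (R 4.3.3; lmFit, eBayes, two-sided, Benjamini-Hochberg) on genes well above background on at least 4 arrays. The number of arrays limits the precision. No t-test as in the methods was possible with 1 array per condition. Scripts used Python 3.11.15 with pandas 2.3.3, and were tested on simulated data.

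Settings tried instead were normexp on the median spot signal (offset 50), cyclic loess, quantile and 75th percentile scaling, the authors' values, both arrays above background, no floor, all probes averaged, outlier spots kept, a 1.5-fold threshold and, for tissues, 12 arrays as samples, a slide block, no filter and rat types or sides left out. Named genes were all members, genes of 7 pathway lists called in a nerve (up to 5 per list) and other MMPs above background on at least 6 arrays. Up to 3 markers per cell type (all 5 for lipid-laden macrophages) and the 3 genes most like each member were named too. Members and lists were chosen with earlier results of these data known. Some genes of the lists are not reported here.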

Additional observations from a re-analysis of the deposited data

Results flagged for a closer look

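Timp3 in the dorsal cord moved in opposite directions in the 2 rat types, which is why it is listed here. Wild-type rats gave a lumbar minus upper cord ratio of 0.30, nude rats one of -0.38, a difference of 0.69 on the log2 scale. The difference was not tested, since each ratio comes from 1 array per side, and both ratios are below 2-fold.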

How the results depend on the processing

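Of the counts of members called in the 6 side-to-side comparisons, 3 tissue contrasts and the rat type difference, 103 of 110 alternative values stayed within 1.5 times the reported count. Requiring both arrays above background left 1 called member in the wild-type nerve, 1 in the nude nerve (Timp1 in both) and 0 in the nude DRG, because Mmp12 and Mmp13 were seen on 1 array of a pair. Normexp gave 1 in the nude nerve (Timp2, lower, at -1.28) and 0 in the nude DRG. It also gave 4 members that differed between rat types, where the reported count was 0. The cause was not tested. For Mmp12 and Mmp13, which are dim, the added offset shrinks the ratios whatever the true change. Left-out rat types or sides gave 2 to 5 members for nerve against DRG, 6 to 7 for nerve against cord and 6 to 7 for DRG against cord. Timp3, nerve against DRG, ranged from -0.33 (injected-side arrays alone) to 0.15 (control arrays alone), with 0.01 without the wild-type rats, and Mmp13, nerve against cord, to 0.19 under normexp; the first was not called as reported. Mmp2 passed 2-fold in the wild-type nerve under cyclic loess (1.01). No paired analysis was possible because each side-to-side comparison within a rat type is a single pair of arrays; the tissue tests already match tissues by rat type. Signal near background limits Mmp3, Mmp9, Mmp12 and Mmp13.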
